A study of Homo sapiens with 79 samples.

Results

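Retinal organoids, laminated neural tissue grown from pluripotent stem cells, were sequenced cell by cell after 60, 90 and 200 days in culture, and the values below concern 8 genes that mark early developmental time: LIN28A, LIN28B, HMGA2, IGF2BP1, IGF2BP2, IGF2BP3, PRTG and FGF19. The genes were chosen by symbol, and all 8 were rows of the deposited count table among 24414 gene rows. The cells came from H9, a human embryonic stem cell line, carrying a CRX-GFP reporter that marks photoreceptor precursors, and every group was the same line given T3, taurine, retinoic acid and foetal calf serum from day 18 on, after an early pulse of Y27632. Dissociated cells were captured on Fluidigm C1 HT chips, and full-length cDNA was made with SMART-Seq v4. Day 60 had 578 cells from 19 columns of 1 chip, day 90 had 661 cells from 20 columns of 1 chip, and day 200 had 2 chips, a with 356 cells and b with 381 cells, each of 20 columns. A chip was taken as the sample, since the columns of a chip share a dissociation and capture. Day 60 and day 90 therefore had no repeat, no test between days was made, and the gap between the day 200 chips is the one measure of spread. Per the study's methods, day 90 was run first, with more concentrated spike-ins and a looser spike-in filter. Day 60 cells were kept from a lower read threshold than the others. These differences cannot be told apart from the day. All cells derive from 1 line, and no source used here says whether chips a and b held separate differentiations.

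LIN28A and LIN28B are RNA-binding proteins that block the maturation of let-7, a microRNA family that accumulates as tissues leave their fetal state. Mature let-7 in turn represses LIN28 and a set of growth genes, among them the chromatin protein HMGA2 and the IGF2BP family, which bind and stabilise messenger RNAs. In the developing retina let-7, miR-125 and miR-9 are known to move progenitors from early to late fates through LIN28 and PRTG, the latter an immunoglobulin-like surface protein of early neural tissue. FGF19 is a secreted growth factor of the early human retina and acts through FGFR4 with the co-receptor KLB. The C1 libraries hold polyadenylated RNA, so mature microRNAs were not measured.

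The seeds below are shown because they define which messenger RNAs the 3 families can pair with. They were read from RefSeq (GRCh38.p14), with bases 2 to 8, the seed, in capitals. The 9 mature let-7 and miR-98 sequences, made from 12 genes, shared 1 seed, and miR-125a and miR-125b shared another.
let-7a-5p: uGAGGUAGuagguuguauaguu
let-7b-5p: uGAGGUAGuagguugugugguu
miR-98-5p: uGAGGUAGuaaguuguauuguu
miR-125b-5p: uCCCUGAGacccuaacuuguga
miR-9-5p: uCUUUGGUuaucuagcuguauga

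The 3′ UTR of each member's canonical transcript in GENCODE 44 (GRCh38) was searched for the 7 bases that pair with each seed, CTACCTC for let-7, CTCAGGG for miR-125 and ACCAAAG for miR-9, on the transcript strand. LIN28B, HMGA2 and IGF2BP1 each held 4 let-7 matches, PRTG held 2, and LIN28A, IGF2BP2 and IGF2BP3 held 1 each. FGF19 held none for any of the 3 families. Of 19538 protein-coding 3′ UTRs, 9.77% held a let-7 match. At least as many matches as in HMGA2 were found in 0.0817% of the 2449 3′ UTRs within 80 to 125% of its length, against 0.181% of 1656 for LIN28B and 0.504% of 793 for IGF2BP1. For PRTG it was the miR-9 matches that were many, 6 in a 3′ UTR of 8468 bases, a number reached by 0.207% of 482 3′ UTRs of like length. A match is a run of letters, and whether any of them is bound in these cells was not measured.

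The following let-7 matches of the 3 members with 4 are shown with the 15 bases before them. Capitals mark the paired bases, with an eighth capital where the base after the match is A. The first line lies at chr12:65963298-65963320 (plus strand), the second at chr6:105078812-105078834 (plus strand), the third at chr17:49051061-49051083 (plus strand) and the fourth at chr17:49054352-49054374 (plus strand).
HMGA2: gccaacgttcgatttCTACCTCA
LIN28B: acccggttgcaaagtCTACCTCA
IGF2BP1: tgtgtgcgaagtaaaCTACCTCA
IGF2BP1: gtataaatggattaaCTACCTCA

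For comparison, a member with a single match and 1 of the 6 miR-9 matches of PRTG follow. They lie at chr3:185644220-185644242 (minus strand) and chr15:55616920-55616942 (minus strand).
IGF2BP2: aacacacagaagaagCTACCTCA
PRTG: catcagtattttcatACCAAAGA

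Total reads were 104935384 at day 60, 115731787 at day 90, and 96640680 and 89204989 on chips a and b. Levels are reads per 1000000 over the summed cells of a chip (CPM) with 95% exact Poisson intervals, and shares of cells carry 95% exact binomial intervals. The reads had no molecular identifiers, so the intervals cover counting error alone and are narrower than the spread among cells. When every cell was thinned to 50000 reads, the median number of genes per cell was 3127 at day 60, 2885 at day 90, and 1667 and 2782 on chips a and b. Chip a thus detected fewer genes at equal depth, and its part in the shares of cells given for it was not tested. The organoids also held cells of non-retinal character, since the summed level of 13 HOX genes, markers of hindbrain and spinal cord, was 762 CPM at day 60, 113 CPM at day 90, then 92.9 and 287 CPM on chips a and b.

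Of the 8 members, 4 (LIN28B, HMGA2, IGF2BP1 and FGF19) were at least 2-fold lower (on CPM + 1) on both day 200 chips than at day 60, and none was higher by this rule. The background for this rule is 4.42% of 14066 genes with at least 5 CPM on 1 chip, a filter that 7 members passed and LIN28A did not. The same 4 members were already lower at day 90, where the background is 8.21%. That comparison sets 1 chip against 1 chip. Between the day 200 chips, 17.7% of genes were at least 2-fold apart in either direction, with a median absolute log2 difference of 0.413. From day 90 to day 200 only IGF2BP1 met the rule on both chips, against a background of 2.80%. The median log2 change of the 8 members from day 60 was -1.85 and -1.60 on chips a and b, while the median of all genes was 0.067 and 0.074. The filter is passed more easily by a gene that is high on 1 chip, so the 4 of 7 is a description of these members. In bulk sums of this kind, fewer cells of a type and less RNA per cell cannot be told apart. Values within cell clusters follow further on, and a cluster may itself mix cell states.

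**Figure D1:**
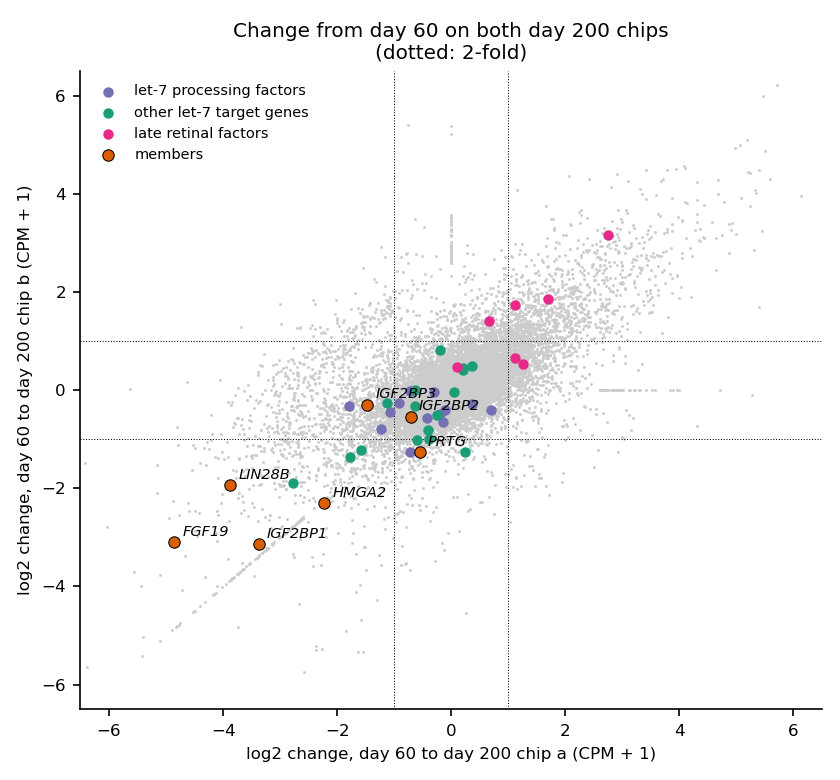
The log2 change of CPM + 1 from day 60 to day 200 is plotted for chip a (x axis) and chip b (y axis), with each grey point 1 of 14066 genes (9 lie outside the axes), orange points the 7 members that passed the level filter, other colours 3 gene lists described with their values in the text, and dotted lines at 2-fold. LIN28B, HMGA2, IGF2BP1 and FGF19 sit beyond 2-fold lower on both axes. None of the 13 let-7 processing factors does, which is near the background of 4.42% of all genes.

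IGF2BP1, on chromosome 17 from 48997385 to 49056145, holds target messenger RNAs in the cytoplasm and is a classic fetal gene. It measured 92.7 CPM (90.8 to 94.5) at day 60, 22.1 CPM (21.2 to 22.9) at day 90, and 8.03 CPM (7.47 to 8.62) and 9.66 CPM (9.03 to 10.3) on chips a and b. The days were in strict order, and the day 200 chips differed from each other by less than either differed from day 90. It was 4.20 times lower at day 90 than at day 60, and 11.5 and 9.59 times lower on chips a and b. Among single columns, which are not replicates, the lowest of day 60 was 44 CPM, and the highest of day 200 was 33.4 CPM and 36.1 CPM on chips a and b. The share of all genes whose columns lie apart in this way was not computed, so these values only describe IGF2BP1. At 50000 reads per cell IGF2BP1 was found in 44.3% of day 60 cells (40.2 to 48.4), 14.0% of day 90 cells (11.5 to 16.9), and in 2.53% (1.16 to 4.74) and 7.61% (5.16 to 10.7) of cells of chips a and b.

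HMGA2, on chromosome 12 from 65824460 to 65966291, is an architectural chromatin protein of proliferating fetal cells. Its level was 39.1 CPM (37.9 to 40.3) at day 60, 9.74 CPM (9.18 to 10.3) at day 90, and 7.57 CPM (7.04 to 8.14) and 7.12 CPM (6.58 to 7.69) on chips a and b. Day 60 stood apart, and the other chips lay close together. The level was 4.01 times lower at day 90 and 5.16 and 5.49 times lower on chips a and b. The few positive cells of day 200 held many reads: 2 cells held at least 50% of the HMGA2 reads of chip a and 3 cells those of chip b, against 20 cells at day 60. The share of cells at 50000 reads went from 19.6% (16.4 to 23) at day 60 to 7.48% (5.59 to 9.77) at day 90, and to 1.40% (0.458 to 3.25) and 3.15% (1.64 to 5.44) on the day 200 chips. RPSAP52, a pseudogene transcript on the opposite strand that overlaps the start of HMGA2, was at 1.53 CPM at day 60, 0.579 CPM at day 90 and 0 on both day 200 chips. The methods name no strand setting, so reads of overlapping genes on opposite strands cannot be told apart.

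FGF19, on chromosome 11 from 69698238 to 69704022, had the largest change of the 8 on chip a. It measured 28.1 CPM (27.1 to 29.2) at day 60 and 4.44 CPM (4.07 to 4.84) at day 90. Chip a had 0 reads, and chip b had 215 reads or 2.41 CPM (2.10 to 2.75) in 5 of 381 cells. The bound for a count of 0 was set at 3 reads or 0.0310 CPM. Against that bound FGF19 was 906 times lower by reads on chip a than at day 60. The exact Poisson interval of chip a reaches further, to 0.0382 CPM, and gives a smaller fold. Both cover counting error alone. By cells the bound is much looser, since 0 of 356 cells allows up to 1.03% (exact interval), against 23% of day 60 cells before thinning. On chip b FGF19 was 11.7 times lower. At 50000 reads, day 60 had FGF19 in 19.9% of cells (16.7 to 23.4) and day 90 in 3.05% (1.87 to 4.68).

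LIN28B, on chromosome 6 from 104936616 to 105083332, was carried by few cells at each time. The level was 14.7 CPM (14.0 to 15.4) at day 60, 1.94 CPM (1.69 to 2.21) at day 90, and 0.0724 CPM (0.0291 to 0.149) and 3.11 CPM (2.75 to 3.49) on chips a and b. The day 200 chips differed widely, with 7 reads spread over 7 cells on chip a and 62.1% of the 277 reads of chip b in 1 cell. LIN28B reads were found in 8.30% of day 60 cells and in 1.82%, 1.97% and 1.84% of the cells of the later chips, before thinning. Of the 30 day 60 cells with at least 5 LIN28B reads, 19 also had at least 5 reads over the 13 HOX genes, a state shared by 60.6% of all day 60 cells. Among cells with under 5 HOX reads, LIN28B was at 8.00 CPM at day 60 and 0.0812 and 3.77 CPM on chips a and b. It no longer met the 2-fold rule among these cells, while HMGA2, IGF2BP1 and FGF19 did. The 1 cell with 62.1% of the chip b reads had 0 HOX reads and so stayed among them. The part of that cell in the lost call was not tested.

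LIN28A, on chromosome 1 from 26410817 to 26429728, stayed at or under 1.14 CPM on every chip. At day 60 it had 120 reads, with 54.2% in 1 cell, and at day 90 it had 47 reads, with 70.2% in 1 cell. It was found in 0.692% of day 60 cells at 50000 reads (0.189 to 1.76) and in 0.458%, 0.562% and 1.57% of the cells of day 90, chip a and chip b, whose intervals overlap. A difference between days was not detectable for LIN28A at this depth.

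**Figure D2:**
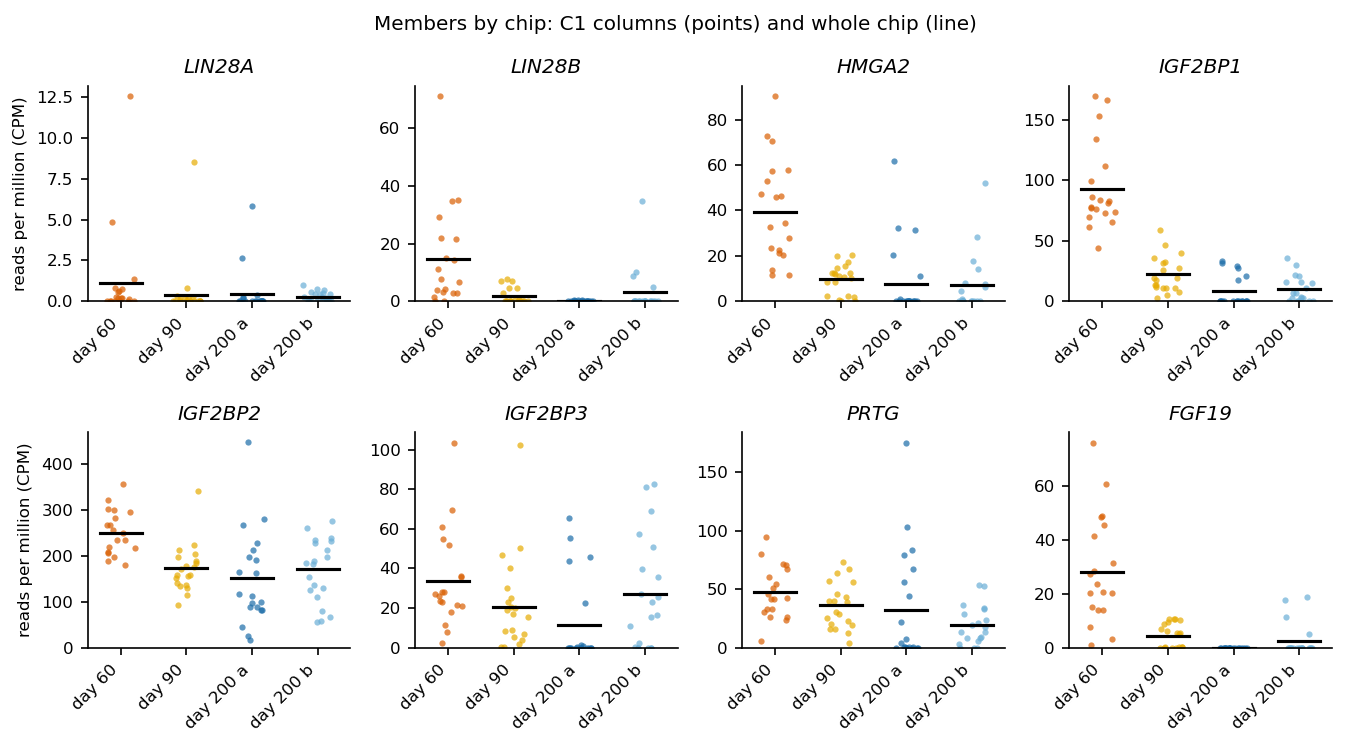
Each panel gives CPM (y axis, from 0) by chip (x axis) for 1 member, with a point for each C1 column and a black line for the whole chip. IGF2BP1 columns of day 60 (44 CPM and above) lie above all day 200 columns (36.1 CPM and below). The columns of every other member overlap between day 60 and day 200, those of HMGA2, LIN28B and FGF19 included. The columns of a chip are not replicates, and the share of all genes with columns apart was not computed.

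The remaining members changed less. IGF2BP2, on chromosome 3 from 185643130 to 185825042, was the most abundant, also per length, at 58.1 CPM per kb of transcript at day 60 against 15.4 for FGF19, 10.5 for IGF2BP1 and 9.49 for HMGA2. It measured 249 CPM (246 to 252) at day 60, 174 CPM (172 to 177) at day 90, and 151 CPM (149 to 154) and 171 CPM (168 to 174) on chips a and b. Day 60 was the highest and day 90 lay next to the day 200 chips, with changes under 2-fold throughout. Its antisense neighbour IGF2BP2-AS1 was at 7.08 to 12.4 CPM.

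IGF2BP3, on chromosome 7 from 23310209 to 23470491, differed widely between the day 200 chips. It was at 33.6 CPM (32.5 to 34.8) at day 60, 20.5 CPM (19.7 to 21.4) at day 90, and 11.5 CPM (10.9 to 12.2) and 27.2 CPM (26.1 to 28.3) on chips a and b. Chip b thus lay above day 90, and the log2 gap between the chips, 1.17, exceeded the change from day 60 to day 90, -0.69. At day 200 IGF2BP3 (11.5 and 27.2 CPM) stood above IGF2BP1 (8.03 and 9.66 CPM), the reverse of day 60 (33.6 against 92.7 CPM).

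PRTG, on chromosome 15 from 55611544 to 55743152, was at 47.7 CPM (46.4 to 49) at day 60, 36.5 CPM (35.4 to 37.6) at day 90, and 32.2 CPM (31.1 to 33.3) and 19.4 CPM (18.5 to 20.3) on chips a and b. Every later chip was lower than day 60, but only chip b by over 2-fold. On chip a 5 cells held at least 50% of the PRTG reads. The share of cells at 50000 reads was 23.5% (20.1 to 27.2), 18.6% (15.7 to 21.8), 6.74% (4.37 to 9.87) and 9.71% (6.93 to 13.1) in the same order.

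**Figure D3:**
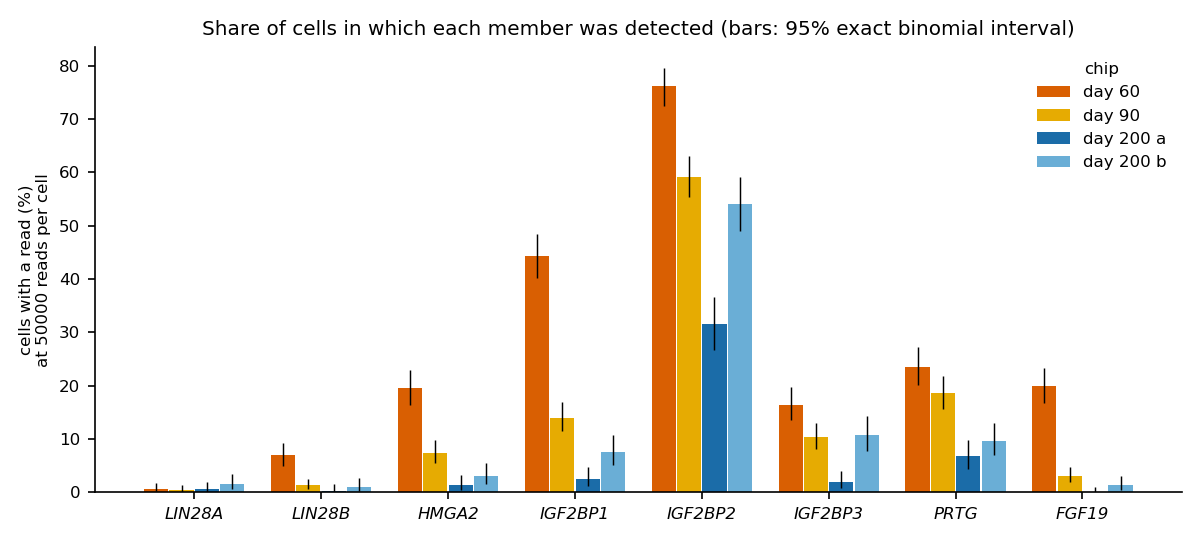
Bars give the percent of cells with at least 1 read of each member (y axis, from 0) after thinning every cell to 50000 reads, by member (x axis) and chip (colour), with 95% exact binomial intervals as lines. IGF2BP1 goes from 44.3% at day 60 to 2.53% and 7.61% on the day 200 chips, and IGF2BP2 stays the most widely detected.

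Cells with reads of several members were most frequent at day 60. At 50000 reads per cell, 33.7% of day 60 cells had reads of 3 or more members, against 6.72% at day 90, and 0.843% and 2.62% on chips a and b. Cells with none made up 6.92%, 24.4%, 59.3% and 32.5%. Each member other than LIN28A was also found singly in a larger share of day 60 cells. The share with 3 or more that such single shares alone would give was not computed, so the order of the days is no measure of co-occurrence. Within day 60, shared cells were set against the product of the shares of both genes. HMGA2 and IGF2BP1 shared 63 cells where the product of their shares gives 50, a ratio of 1.26, and IGF2BP1 and FGF19 shared 62 where it gives 50.9. LIN28B and PRTG shared 6 cells where the product gives 9.41. These pairs are examples: HMGA2 and IGF2BP2 had a ratio of 1.01 at day 60, and HMGA2 and IGF2BP1 had 1.02 at day 90. Pairs of genes outside the members were not computed.

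Cells were aligned by time point and clustered along the steps of the study's methods, but with a later version of Seurat and with 20 dimensions, a number chosen here. This gave 13 clusters, which may differ from those of the study, and none of the 8 members was among the 2426 variable genes used. The clusters were named from the study's own marker lists, and a cluster with no list gene among its 10 leading genes goes by its leading gene. The IGFBP6-led cluster (110 cells) is such a case: it carried 6 markers of the Müller glia list, none of them among its leading genes, and was kept apart from the Müller glia-like cluster. The VSX1-led cluster matched the study's rod list through VSX1, NEUROD4 and LHX4, genes also known from bipolar cells and precursors, while GNAT1 and NRL led a separate, CCKBR-led rod-like cluster, so it is called VSX1-led here. Values are given for clusters with at least 20 cells on a chip. The Müller glia-like cluster (140, 120, 98 and 75 cells in the order of the chips) was led by TF, GPX3 and WIF1. Its list also holds VIM, HES1 and SFRP2, which retinal progenitors express too. At resolution 0.8 a further cluster named from this list and led by GPX3 held 1, 8, 60 and 11 cells in the order of the chips. The Müller glia-like cells of different days may therefore differ in cell state, and values between days within this cluster are not those of 1 fixed cell type. The mitotic-like cluster was led by MKI67 and TOP2A and had 65 cells at day 60 and 22 at day 90. Lists 7 and 8 of the study carry no cell type, and the clusters matching them were led by AOC2 and CPAMD8 and by GPC3 and SPARCL1.

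IGF2BP1 was broadly present at day 60, from 45.2 CPM in the cluster 8-like cells to 152 CPM (145 to 158) in the mitotic-like cells, where 73.8% of cells had a read. The VSX1-led cells had 84.2 CPM and the cone-like cells 96.9 CPM. In the RGC-like cells it was 50 CPM with 34.1% of cells. It was lower at day 90 than at day 60 in 6 of 6 clusters with enough cells, and at least 2-fold lower on chip a in 4 of 4 and on chip b in 6 of 6. In the Müller glia-like cells the level went from 102 CPM (98.3 to 107) at day 60 to 19.4 CPM (17.4 to 21.6) at day 90, then 7.59 and 5.42 CPM on chips a and b. When each cluster kept its day 60 share of reads, the summed IGF2BP1 level was 7.12 CPM on chip a against 91.3 CPM at day 60 over 4 clusters, and 9.55 CPM on chip b against 80.5 CPM over 6 clusters. Within the Müller glia-like cluster, the same 4 members were 2-fold lower by day 90 and on both day 200 chips, against backgrounds of 19.4% and 10.1% of 14318 genes.

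HMGA2 at day 60 was highest in the mitotic-like cells, at 76.1 CPM (71.5 to 80.9) with 40.0% of cells positive. The cluster 8-like cells had 57.8 CPM and the Müller glia-like cells 52.3 CPM (49.3 to 55.5). The cone-like cells had 10.2 CPM and the VSX1-led cells 8.71 CPM, with 44.9% and 53.3% of the reads in 1 cell. The VSX1-led cells were no lower at day 90, at 9.64 CPM with 80.4% of the reads in 1 cell. At day 90 the mitotic-like cells still had 36.8 CPM and the IGFBP6-led cells 38.8 CPM, with 33.3% of the latter positive. The RGC-like cells of day 90 had 0.187 CPM. From day 60 HMGA2 was at least 2-fold lower in 5 of 6 clusters at day 90, in 3 of 4 on chip a and in 5 of 6 on chip b. At fixed day 60 cluster shares the log2 change of HMGA2 was -1.94 and -2.48 on chips a and b.

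FGF19 at day 60 was highest in 2 clusters. The Müller glia-like cells had 66.5 CPM (63.2 to 70.1) with 42.1% positive (33.9 to 50.8) and held 49% of all FGF19 reads of that chip, and the mitotic-like cells had 51.4 CPM (47.7 to 55.4) and held another 23.7%. At day 90 the Müller glia-like cells were at 0.227 CPM (0.0620 to 0.582), from 4 reads in 120 cells, and the mitotic-like cells had none. The cluster 7-like cells, in contrast, had 63.7 CPM (57 to 70.9) at day 90, with reads in 11 of 31 cells (35.5%, 19.2 to 54.6), and held 64.6% of the FGF19 reads of the chip. No single cell held over 16.0% of these, and the 31 cells came from 16 columns. Among clusters with at least 20 cells both at day 60 and later, FGF19 was at least 2-fold lower in 6 of 6 at day 90, in 4 of 4 on chip a and in 5 of 6 on chip b. On the other chips that cluster was too small for a level, with FGF19 reads in 7 of 19 cells at day 60 and in none of the 8 and 15 cells of chips a and b.

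**Figure D4:**
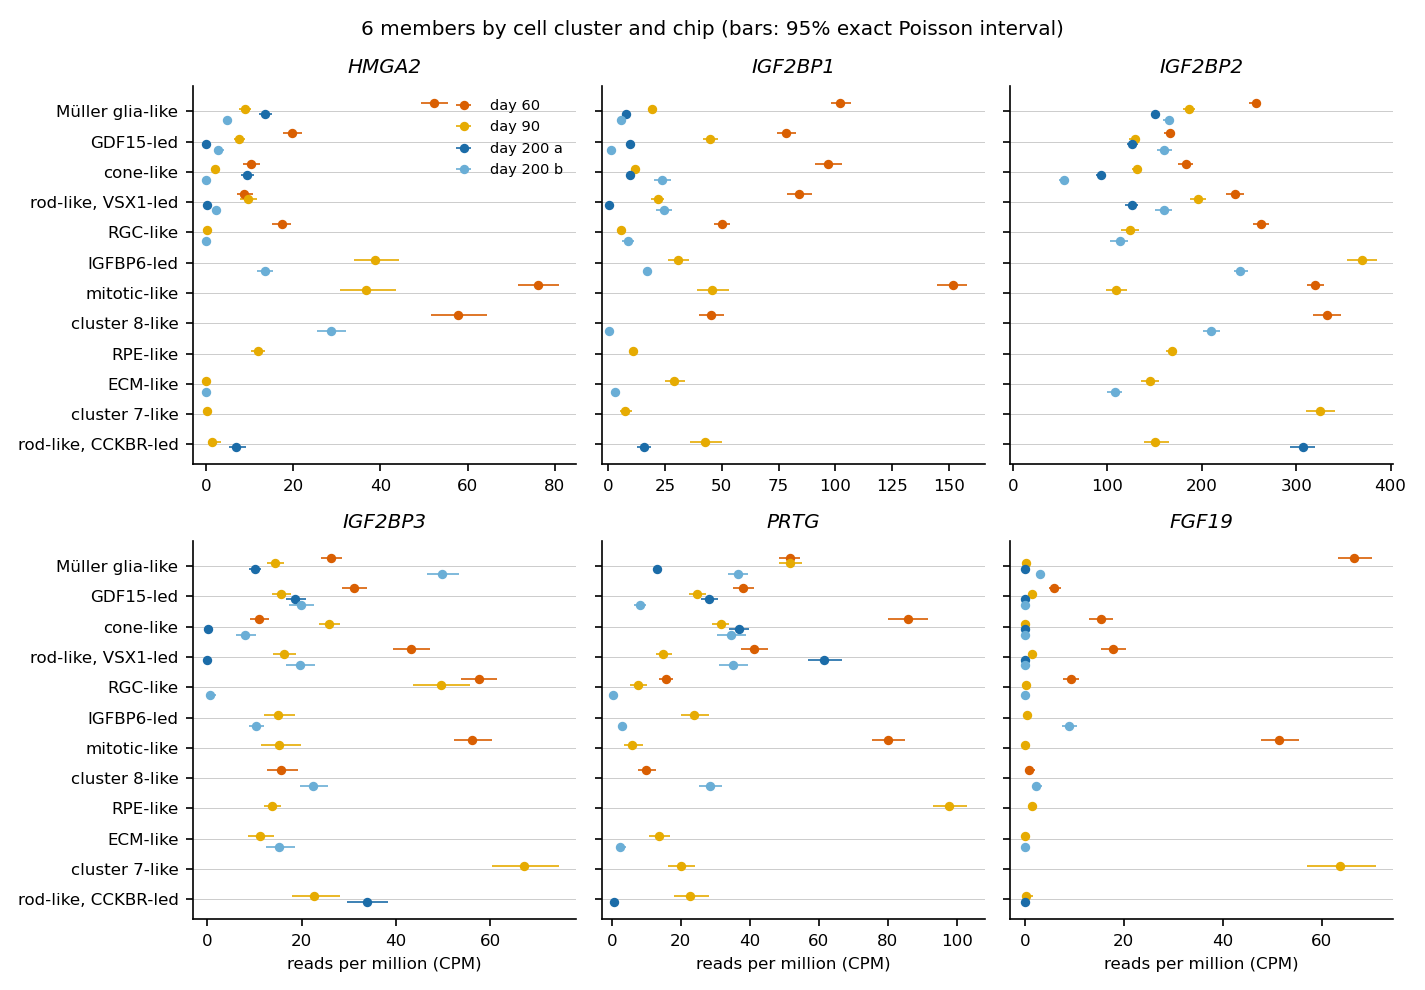
Each panel gives CPM (x axis) of 1 of 6 members for clusters with at least 20 cells on a chip (y axis), with points coloured by chip and 95% exact Poisson intervals as lines. The VSX1-led cluster keeps the name of the rod list on the y axis. FGF19 is high in Müller glia-like and mitotic-like cells at day 60 and in cluster 7-like cells at day 90 (63.7 CPM), and PRTG has its highest level in RPE-like cells at day 90 (97.9 CPM).

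PRTG had another distribution. At day 60 the cone-like cells had 85.8 CPM and the mitotic-like cells 80.0 CPM, while the RGC-like cells had 15.7 CPM and the cluster 8-like cells 9.96 CPM. At day 90 the RPE-like cells, the pigment epithelium beside the neural retina, had 97.9 CPM (93.2 to 103) with 52.6% positive (40.9 to 64), and they held 39.1% of all PRTG reads of the chip in 11.8% of its cells. The Müller glia-like cells were at 51.6 CPM at day 60 and 51.7 CPM at day 90. The RPE-like cluster had 4, 9 and 6 cells on the other chips, too few for a comparison between days. At day 200 PRTG was at 36.8 and 34.5 CPM in cone-like cells of chips a and b and at 61.6 and 35.2 CPM in VSX1-led cells, and 1 cell held from 34.6% to 55.2% of the reads in each. The CCKBR-led rod-like cells were at 22.7 CPM at day 90 and 0.566 CPM on chip a.

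LIN28B at day 60 was highest in the RGC-like cells at 44.4 CPM (41 to 47.9), with 54.8% of the reads in 1 cell and 10.2% of cells positive. The HOX genes summed to 2610 CPM in these RGC-like cells, 97.7% of which had at least 5 HOX reads. The sum was 525 CPM in the Müller glia-like cells and 78.3 CPM in the cone-like cells. The cluster 8-like cells of day 60 had 1590 CPM of HOX genes, with LIN28B at 11.2 CPM. The part of HOX-positive cells in the LIN28B level was not tested. In the Müller glia-like cells LIN28B was at 18.5 CPM at day 60 and at or under 0.171 CPM on the later chips. At day 90 the cone-like cells held 82.6% of LIN28B reads, at 9.17 CPM in 4.90% of cells. The cone-like cells were also where LIN28B was higher than at day 60 (1.72 CPM), both at day 90 and on chip b (9.58 CPM, in 3 of 30 cells).

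IGF2BP3 at day 60 was highest in the RGC-like (57.5 CPM) and mitotic-like cells (56.2 CPM), and at day 90 in the cluster 7-like cells (67.1 CPM, with 54.6% of reads in 1 cell). The gap between the day 200 chips was seen within the Müller glia-like cluster, where 13 of 75 cells of chip b had reads (49.8 CPM) against 2 of 98 cells of chip a (10.1 CPM, 99.6% of it from 1 cell). IGF2BP2 was found in at least 30.0% of the cells of every cluster on every chip. Its highest levels were 370 CPM in the IGFBP6-led cells at day 90, 333 CPM in the cluster 8-like cells at day 60 and 325 CPM in the cluster 7-like cells at day 90.

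The number of let-7 matches was then set against the change of all genes. Of 10 genes with 4 or more matches that passed the level filter, 5 were at least 2-fold lower on both day 200 chips than at day 60, namely LIN28B, HMGA2, IGF2BP1, IGDCC3 and HIC2. Among genes with 0, 1, 2 and 3 matches the share was 3.65%, 3.07%, 2.94% and 5.00%. Since 3 of the 5 are members of the list chosen here, the counts describe the list and are no independent support. FGF19, with no match, was also lower.

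**Figure D5:**
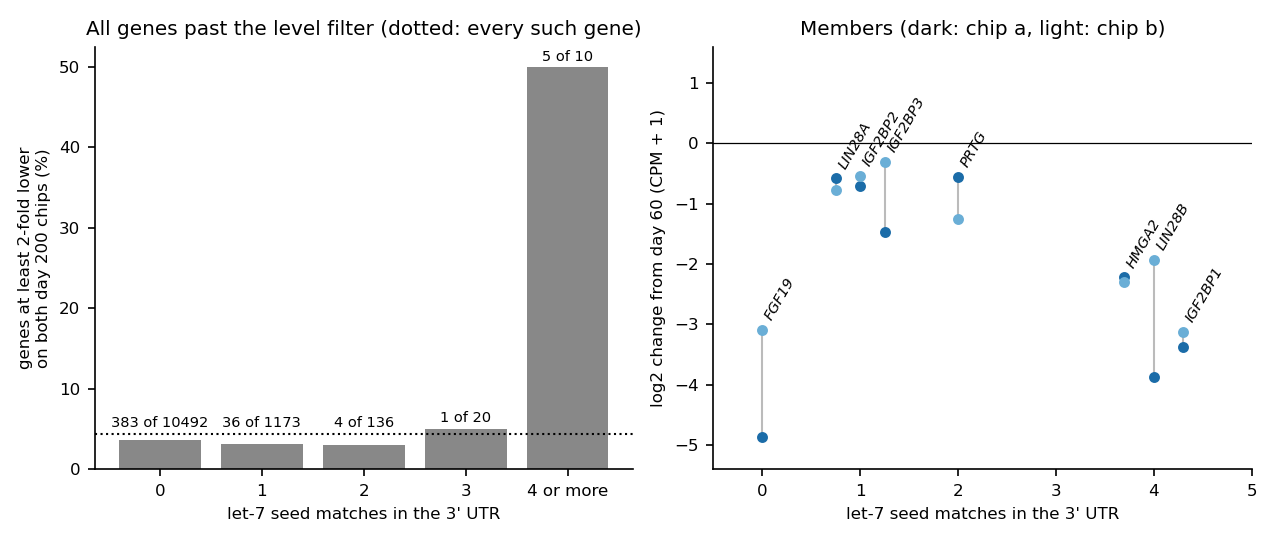
Left, bars give the percent of genes (y axis, from 0) at least 2-fold lower on both day 200 chips by the number of let-7 seed matches in the 3′ UTR (x axis), with counts above each bar and a dotted line at 4.42%. Right, the log2 change of each member from day 60 on chip a (dark) and chip b (light) is set against its number of matches, with LIN28B, HMGA2 and IGF2BP1 at 4.

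Of 13 factors that process or degrade let-7, none was at least 2-fold lower or higher on both day 200 chips. The backgrounds are 4.42% for lower and 7.94% for higher genes, so none of 13 is near the share of all genes. The median log2 change of the 13 was -0.43 and -0.41 on chips a and b. TRIM71, itself an early gene and let-7 target, went from 21.7 CPM at day 60 to 12.7 CPM and 8.37 CPM on chips a and b. TUT4, which adds uridines to let-7 precursors held by LIN28, was at 399 CPM at day 60 and 296 and 270 CPM at day 200. DGCR8, part of the nuclear processing complex, was at 17.3 CPM and 7.68 and 12.5 CPM, and KHSRP at 70.4 CPM and 29.2 and 40.0 CPM.

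Of the host transcripts of let-7, miR-125 and miR-9, 5 of 6 passed the filter and 2 were called higher, against a background of 7.94% for higher genes. Both are miR-9 hosts. LINC00461 was at 102 CPM at day 60, 125 CPM at day 90, then 206 and 224 CPM on chips a and b, and C1orf61 at 63.6, 31.9, 140 and 130 CPM. The hosts of let-7 and miR-125 met the rule in neither direction, with MIR100HG at 116 CPM at day 60 and 158 and 167 CPM at day 200. The further miR-9 host MIR9-3HG was at 3.72 CPM at day 60 and 13.2 and 5.67 CPM at day 200. The let-7 host MIRLET7BHG did not pass the filter, at 1.31 to 3.15 CPM. A host transcript is not a measure of its mature microRNA.

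Of 16 other genes known as let-7 targets that passed the filter, 3 were lower at day 200 and none higher, against 4.42% of all genes lower. The cell cycle gene CCND1 was at 318 CPM at day 60, 98.0 CPM at day 90, then 106 and 136 CPM on chips a and b. The DNA-binding protein ARID3A was at 90.0 CPM and then 31.2, 25.4 and 34.5 CPM. IGDCC3, a surface protein of the same family as PRTG, was at 28.4 CPM and then 8.85, 3.31 and 6.94 CPM. MYCN was at 28 CPM at day 60 and 18.2 and 13.3 CPM at day 200, and HMGA1, the relative of HMGA2, at 96.1, 72.4 and 54.5 CPM. By the same 3′ UTR search as for the members, CCND1 and MYCN held 0 let-7 matches, HMGA1 1, ARID3A 2 and IGDCC3 4.

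In the wider family of PRTG, the DCC group of receptors with their ligands and RGM partners, 3 of 7 genes that passed the filter were lower at day 200 (background 4.42%) and none higher. Besides IGDCC3 these were DRAXIN, at 37.9 CPM at day 60 and 17.0 and 16.4 CPM at day 200, and RGMA, at 7.45 CPM and 2.25 and 3.09 CPM. RGMB was at 31.8 CPM and 12.5 and 17.4 CPM, and the receptor NEO1, the highest of the group, at 54.4 CPM and 55.5 and 61.4 CPM.

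Along the FGF axis (backgrounds of 4.42% for lower and 7.94% for higher genes), FGFR3 was lower, from 46.8 CPM at day 60 to 7.37 and 6.40 CPM at day 200, and the transcription factor ETV5 was higher, from 13.8 to 57.1 and 39.8 CPM. The other 8 of 10 genes met the rule in neither direction, among them the inhibitor SPRY2 (12.4 CPM against 25.2 and 27.5 CPM), FGFR1 (75.2 CPM against 94.3 and 98.6 CPM) and the inhibitor SPRY1, the highest at day 60 (106 CPM). The receptor of FGF19, FGFR4, was at 1.22 CPM at day 60 and its co-receptor KLB at 2.41 CPM, with KLB at 0 reads on both day 200 chips. None of the 9 genes of the insulin-like growth factor axis that passed the filter was called lower or higher at day 200. INSR went from 60.6 CPM to 160 and 99.3 CPM, IRS2 from 55.5 CPM to 123 and 101 CPM, IGFBP2 from 52.5 CPM to 12.7 and 37.6 CPM and IGF1R from 107 CPM to 139 and 151 CPM. IGFBP5 was the highest, at 311 CPM at day 60 and 308 and 750 CPM at day 200. IGF2, whose messenger gave the IGF2BP family its name, was at 106 CPM at day 60 and 121 and 226 CPM at day 200.

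Of 7 factors of late retinal progenitors, 3 were higher on both day 200 chips (background 7.94%) and none lower. NFIX was at 4.56 CPM at day 60, 19.2 CPM at day 90, then 36.3 and 48.8 CPM on chips a and b. NFIB was at 69.1, 201, 226 and 253 CPM and ZBTB20 at 54, 93.7, 118 and 181 CPM, while NFIA, at 87.7, 106, 139 and 235 CPM, passed 2-fold on chip b alone. In the Müller glia-like cluster of day 60, IGF2BP1 was found in 30 of 52 cells with a read of NFIA, NFIB or NFIX (57.7%, 43.2 to 71.3) and in 29 of 88 without (33.0%, 23.3 to 43.8) at 50000 reads, with medians of 3244 and 2942 genes per cell. IGF2BP1 is named for the widest gap in this split: HMGA2 was found in 25% of cells with and 27.3% without, IGF2BP3 in 15.4% and 17.0%, and FGF19 in 42.3% and 35.2%. At day 90 it was found in 9 of 99 with (9.09%, 4.24 to 16.6) and in 4 of 20 without (20.0%, 5.73 to 43.7).

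Of 14 general progenitor genes that passed the filter, 1 was lower at day 200 (background 4.42%) and none higher, with a median log2 change of -0.02 and 0.15 on chips a and b. That gene was ZIC1, at 105 CPM at day 60, 35.6 CPM at day 90, then 22 and 35.4 CPM on chips a and b. The Notch ligand DLL3 was at 24 CPM and then 16.8, 15.4 and 15.1 CPM. HES1 had the highest level, at 1530 CPM at day 60 and 1360 and 1730 CPM at day 200. Of 6 pluripotency genes measured, 1 passed the filter, the DNA methyltransferase DNMT3B, at 26.2 CPM at day 60, 28 CPM at day 90 and 7.05 and 7.73 CPM at day 200. NANOG was at or under 0.277 CPM on all chips.

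Across the 31 groups of a cluster on a chip, the genes most like each member in log2(CPM + 1) were ranked by Pearson's r over 14267 genes. The groups share chips and therefore depth and day, so r is a description. HMGA2 was like RANBP17 and PRAG1 (both r = 0.73). For IGF2BP1 the first were RPL18 (0.76), TMSB15A (0.74) and PPDPF (0.72), and for FGF19 GPR171 (0.79), AC022639.1 (0.75) and RPS15AP1 (0.74). IGF2BP2 was most like AKIRIN1 (0.73), CDH6 (0.68) and TMEM63A (0.66), and IGF2BP3 most like CCNB1IP1 (0.77), KMT5A and ISG20L2 (both 0.72). PRTG had the weakest likeness, with SYCP2L (0.67), YES1 (0.64) and PML (0.63), and LIN28B was most like AC022639.1 (0.76), MT-TS2 (0.75) and SNORD116-8 (0.73).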

How the data were processed

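Per the labels and methods, reads were trimmed with Trimmomatic 0.33, aligned with STAR 2.4.0 to GRCh38.p7 with GENCODE 25 and counted with HTSeq. The authors deposited raw counts of 1976 filtered cells and did not name a strand setting. The spike-in row was left out of totals. The members and gene lists were chosen with earlier results of these data known. Reads were summed per chip as CPM, and a gene was called at 2-fold on CPM + 1, on both day 200 chips where day 200 is compared, among genes with at least 5 CPM on 1 chip. Of each companion list the text names up to 4 genes with the largest smaller change of the 2 chips and the highest gene. Other genes in the text were chosen after their values were seen. Some genes that this rule names are not reported here. No p-values were computed. Clusters were made with Seurat 5.3.0 (CCA, 20 dimensions, resolution 0.6), a later version than that of the study, with the number of dimensions chosen here. Scrublet in scanpy 1.11.5 called 1, 0, 22 and 2 doublets in the order of the chips, and they were kept. The code for the calls was run on simulated chip sums, and that for the thinning on cells of these data. The simulated chips had less spread than the day 200 chips and no single cells, so the run checks the code and not the calls made here. TMM factors came from edgeR 4.0.16. Cluster names are rebuilt and may differ from those of the study. E2F2, FGF3, POU5F1, TDGF1, UTF1 and 3 antisense genes were not analysed here.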

Additional observations from a re-analysis of the deposited data

How the results depend on the processing

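The 4 lower members stayed the same 4 with TMM factors, mean CPM per cell, cells with at least 150000 reads, doublets left out, an offset of 5 CPM or no minimum. Counting spike-in reads is no check of the calls. The spike-in row held 0 reads at day 60 and day 90, and 15976 and 3515 on chips a and b, too few to alter the totals. Without day 200 chip a PRTG joined them and without chip b IGF2BP3 did, making 5 each. Among cells with under 5 HOX reads, a choice made after seeing the data, LIN28B left and 3 remained. The chip b cell with the most LIN28B reads was among these cells. The median change of the 8 members, -1.72 on average over the chips, ranged from -1.85 to -1.60 without 1 day 200 chip and was -2.05 without the cell with the most reads of each member and -1.38 among cells with under 5 HOX reads, both chosen after seeing the data. All 72 single-member values, those with spike-in reads counted among them, kept their direction, and 8 moved by more than the spread of the day 200 chips. No member was a variable gene, so keeping members among them changed nothing. The count of lower genes, 622, was 383 with an offset of 5 CPM and 1680 with no minimum, and ranged from 940 to 1834 without 1 day 200 chip. The share of day 60 cells with 3 or more members was 33.7% at 50000 reads, 26.5% at 25000 reads and 13.0% when a cell needed 5 reads. The mean log2 change of IGF2BP1 in the Müller glia-like cluster, -3.80, ranged from -4.01 to -3.59 without 1 day 200 chip, and was -3.16 at resolution 0.4, -5.08 at resolution 0.8, -3.18 with 10 dimensions, -5.08 with 30 dimensions and -3.36 with cells given to their nearest marker list. At resolution 0.8 that cluster held 139, 112, 38 and 65 cells in the order of the chips, and with 30 dimensions 139, 146, 56 and 82. The cause was not tested. No paired analysis was possible because no test was made and the chips share no replicate numbers.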
